A study of Mus musculus with 2 samples.

Results

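Splice junctions with an intron of at most 90 bases were taken from the junction lists of 2 mouse macrophage libraries. The intron length was read from each listed junction as the gap between its 2 aligned blocks, and a junction counted once if it was listed in either library. Of 131057 junctions, 5287 (4.03%) had an intron this short, and they carried 342502 of 8034945 junction reads (4.26%). They ranged from 52 to 90 bases, and 238 were under 70 bases. The 278 junctions of 90 bases, the longest still included, carried 18992 reads, and the 264 junctions of 91 bases, just outside, carried 13099. In the text below "short" means at most 90 bases and "longer" means 91 bases or more.

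The cells were peritoneal macrophages of male C57BL/6JJcl mice that had adhered for 24 h, harvested 3 days after an injection of thioglycolate, an irritant that draws monocytes into the cavity. One group received IL-10, an anti-inflammatory cytokine that signals through STAT3, at 100 ng/ml for 4 h, and the other was left untreated. Each group has 1 library (n = 1), so no spread between cultures or animals can be given. All intervals cover counting error only, and no p-value is reported between the groups.

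An intron is removed by the spliceosome, in which the U1 particle reads the 5′ splice site, and U2AF and the U2 particle read the pyrimidine tract, the 3′ splice site and the branch point. In mammals most exons are recognised across the exon, because introns are long. Very short introns leave little room for these contacts, and they are known to be recognised across the intron, to be rich in G and C, and to lie in compact gene regions.

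The letters of a short intron were available where a GENCODE M21 transcript keeps the intron inside an exon. The following coding introns are shown because they carried many reads (Crip1, Actb, Calr), were among the shortest (Slc27a1, Piezo1), stood at opposite ends of base composition (Clk1, Fut11), or differed between the libraries (Clk1, Tcirg1, Sbf1). Each is written 5′ to 3′ on the transcript strand, with its first 2 and last 2 bases in capitals.
Crip1, chr12:114391587-114391665: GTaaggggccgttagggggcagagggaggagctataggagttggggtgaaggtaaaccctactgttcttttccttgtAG
Actb, chr5:143667156-143667242: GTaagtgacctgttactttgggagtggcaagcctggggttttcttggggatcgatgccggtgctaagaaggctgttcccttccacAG
Calr, chr8:87368683-87368769: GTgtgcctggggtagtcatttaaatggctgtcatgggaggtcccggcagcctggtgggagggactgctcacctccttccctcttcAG
Slc27a1, chr8:74104601-74104665: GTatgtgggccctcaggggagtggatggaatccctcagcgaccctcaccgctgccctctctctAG
Piezo1, chr8:125006892-125006956: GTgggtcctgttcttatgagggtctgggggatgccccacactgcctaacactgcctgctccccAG
Clk1, chr1:58474024-58474110: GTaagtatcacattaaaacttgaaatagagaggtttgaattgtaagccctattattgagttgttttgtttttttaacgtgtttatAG
Fut11, chr14:21514921-21515009: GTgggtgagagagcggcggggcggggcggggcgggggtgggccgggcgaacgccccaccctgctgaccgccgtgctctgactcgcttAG
Tcirg1, chr19:3897682-3897757: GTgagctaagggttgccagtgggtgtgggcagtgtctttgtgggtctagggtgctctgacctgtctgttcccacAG
Sbf1, chr15:89135517-89135593: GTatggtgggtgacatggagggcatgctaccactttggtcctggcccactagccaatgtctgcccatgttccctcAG
Coordinates are those of the deposited lists, on mm9. Each of those shown has GT and AG ends.

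Letters were found for 999 of the 4401 short introns that matched 1 gene (22.7%). Of these, 994 began with GT and ended with AG (99.5%), and 5 began with GC. The first 5 bases were GTGAG in 368 introns (36.8%) and GTAAG in 185 (18.5%), read on the transcript strand at the fixed first position. The last 3 bases were CAG in 707 (70.8%) and TAG in 259 (25.9%). In the 15 bases before those, a median of 73.3% were C or T, against 46.7% of the last 15 exon bases upstream of the same introns. The median GC content was 57.5% (middle 50% of introns, 51.2% to 62.2%), with extremes of 21.4% and 83.1%. The 30 exon bases on each side had a median of 55.0%. Of the introns shown, Clk1 had 27.6% and Fut11 had 77.5%. An example of the GC start, chosen after its values were seen, is an 89-base intron of Ipo5, a nuclear import receptor, with 82 IL-10 reads and 77 untreated reads.
Ipo5, chr14:121325546-121325634: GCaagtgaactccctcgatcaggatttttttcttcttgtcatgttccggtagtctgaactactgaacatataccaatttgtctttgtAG
These letters cover the introns that the annotation also lists as kept in a transcript, and so are not a sample of all short introns.

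The 2 libraries held 3998954 (IL-10) and 4035991 (untreated) junction reads, and short introns took 4.25% and 4.27% of them. Macrophage markers fitted the label, with at least 20 reads for 7 of 8 (1.56% of scaled reads with IL-10, 1.98% untreated, and Cd14 at 0). A marker at 0, here and in the next sentences, had no matched junction. The match described below needs at least 2 introns of a gene, so a marker with 1 intron could not be counted, whatever its expression. T and NK cell markers summed to 6 and 1 reads, with Cd3d, Cd8a, Ncr1 and Klrb1c at 0. Neutrophil markers summed to 311 and 267, with Ly6g, S100a8, S100a9, Elane and Mpo at 0, and eosinophil and mast cell markers to 96 and 60. Fibroblast and mesothelial markers summed to 1258 and 1151, with 5 of 7 at 20 reads or more. The part of these cells in the results below was not tested, and in bulk RNA fewer cells of a type and less RNA per cell cannot be told apart.

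Most short junctions were annotated introns. A junction was matched by chromosome, strand and exact length, with at least 2 introns of the gene at a common distance between the builds. By this rule 4498 of 5287 matched (85.1%, exact binomial 95% interval 84.1% to 86.0%), with 98.8% of the short reads. Among longer junctions the share was 81.0% (80.8% to 81.2%). The share fell steeply at the short end. It was 8% of 50 junctions at 52 to 59 bases, 42.6% of 188 at 60 to 69 bases, 82.4% of 466 at 70 to 74 bases, and 87.9% of 1915 at 85 to 90 bases. A matched short intron carried a median of 17 reads, and 3866 of all 5287 short junctions (73.1%) were seen in both libraries. There were 736 short junctions listed with IL-10 only and 685 in the untreated library only, each with a median of 1 read.

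**Figure D1:**
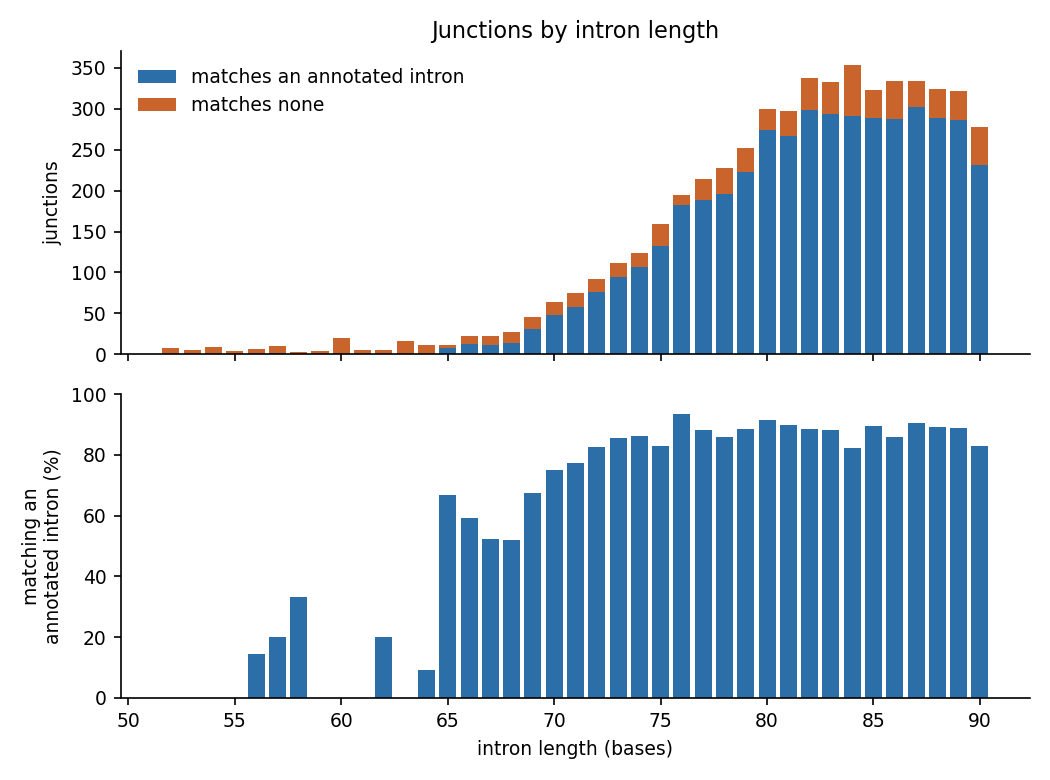
Junctions by intron length in bases (x axis), from the lists of both libraries joined. Upper panel, number of junctions, split by whether they match an annotated intron. Lower panel, percent matching. Junctions are few below 70 bases, and few of those below 65 bases match.

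The shortest matched introns with at least 20 reads lay in 5 genes. The shortest of all was a 56-base intron of Hnrnph1, a splicing factor that binds G-rich RNA (chr11:50196374-50196429), with 32 reads in IL-10 and 33 in untreated cells. Gcdh, a mitochondrial enzyme of lysine breakdown, had a 57-base intron in its 5′ UTR with 24 and 27 reads. Slc27a1, a fatty acid transporter, had a 65-base intron with 63 and 89 reads. Piezo1, a mechanically gated channel, had one of 65 bases with 62 and 48 reads, and Stab1, a scavenger receptor, had one of 65 bases with 17 and 14 reads. All 5 were used in both libraries. None of the 5 passed a fold of 2 between the libraries. Against the longer introns of its gene (65 and 31 reads) the Gcdh intron was lower, with an odds ratio of 0.424 (0.199 to 0.902).

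Short introns sat in 2251 of the 10497 genes that had a matched junction (21.4%). The majority of these host genes, 1357, held 1 short intron, 456 held 2, 438 held at least 3, and 21 held at least 10. Host genes had a median of 12 matched introns, of median length 492.5 bases, and a median of 290 reads. Genes with no short intron had medians of 7 introns, 1807 bases and 106 reads. The choice of host genes fixes part of this, since a gene with more introns or reads has more chance to show a short one, and the short introns enter the median length. Short introns were coding in 97.3% of cases, against 94.2% of the longer introns in the same genes. They were the first intron in 4.09% (longer 7.91%) and the last in 9.73% (longer 6.50%). A donor or acceptor was shared with another listed junction in 14.4%, against 20.2%.

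The gene with the most short introns was Cpsf1, the large subunit of the complex that cleaves pre-mRNA before polyadenylation, with 24 of its 36 matched introns at 66 to 90 bases. Stab1 had 19 of 68, Sbf1 (a myotubularin-related scaffold) 18 of 38, Abca2 (a lipid transporter) 18 of 44, Edc4 (a scaffold of mRNA decapping) 15 of 31, Flna (filamin A, an actin crosslinker) 14 of 49, Piezo1 14 of 51 and Tbl3 14 of 22. The Cpsf1 short introns summed to 325 reads with IL-10 and 258 untreated, a ratio of 1.27 (1.07 to 1.5), and its longer introns to 89 and 75, a ratio of 1.2 (0.87 to 1.65). In Flna the 14 short introns summed to 3770 and 3578 reads (ratio 1.06, 1.01 to 1.11), and the single introns ran from 0.82 to 1.24. Its longer introns summed to 9808 and 8605 (ratio 1.15, 1.12 to 1.18). Abca2 was lower at its short introns, with 97 and 132 reads (0.740, 0.563 to 0.969), and had 126 and 156 at its longer ones (0.813, 0.638 to 1.04). In all 8 of these genes the ratio of the short introns lay within 1.5-fold of that of the longer introns. Ratios here and below are IL-10 over untreated reads, each divided by the library's reads on introns of 1 gene (3835809 and 3863162).

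The share of genes holding a short intron was 21.4% over all genes, and it was higher in every gene list but that of MHC genes. Host genes had more matched introns and reads than other genes, as given above. The lists were not matched to all genes for either, so the shares are not evidence about gene function. It was 9 of 18 measured chaperone genes (50%), 17 of 35 translation factor and tRNA synthetase genes (48.6%), 9 of 19 glycolysis and pentose phosphate genes (47.4%) and 19 of 46 lysosomal genes (41.3%). It was 3 of 20 for MHC class I and II and antigen loading (15%), 5 of 21 for oxidative phosphorylation (23.8%) and 6 of 21 for ribosomal proteins (28.6%). The lists of actin, tubulin and motor, splicing factor, proteasome, and scavenger, Fc, integrin and complement genes had 38.2% to 44.4%. The IL-10 and Stat3 response list had 23.8%. Among the translation genes, Eif4g2, an initiation factor relative, had 6 short introns with 2647 and 2479 reads, Eef2, the elongation factor that moves the ribosome, had 5 with 1907 and 2336, and Qars, the glutamine tRNA synthetase, had 6 with 376 and 404. Of the chaperones, P4hb, an ER protein disulfide isomerase, had 1 short intron with 1023 and 1105 reads, and Hspa5 (BiP) had 1 with 469 and 710, a ratio of 0.665 (0.591 to 0.749). The longer introns of Hspa5 had 1793 and 2060 reads, a ratio of 0.877 (0.822 to 0.934). The odds ratio between them was 0.759 (0.663 to 0.868).

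The 10 short introns with the most reads took 16.9% of short reads. Crip1, a small LIM-domain protein, had an intron with 4789 reads in IL-10 and 6698 in untreated cells. Psap, the precursor of the saposins that assist lysosomal lipid breakdown, had 4767 and 4405, and Cd68, a macrophage lysosomal glycoprotein, had 2832 and 4520. Then came Actb (3583 and 2939), Csf2ra (the GM-CSF receptor alpha chain, 2762 and 3006), Rpl8 (2155 and 1857), Vim (vimentin, 2007 and 1970) and Pld3 (1708 and 1828). Calr, an ER chaperone, had 1585 and 1549, Lamp1, a lysosomal membrane protein, 1427 and 1565, Ucp2, a mitochondrial carrier, 1437 and 1462, and Trem2, a lipid-sensing receptor, 1222 and 1350. None of the 12 reached a ratio of 2 or fell to 0.5. Actb and Rpl8 have near-identical copies in the genome, so their counts may be uncertain, which was not tested.

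Within Cd68, the first intron (83 bases) had a ratio of 0.631 (0.602 to 0.662), whereas its longer introns had 12075 and 12783 reads, a ratio of 0.951. The odds ratio between them was 0.663 (0.629 to 0.700). Crip1 showed a smaller gap in the same direction, with 0.720 (0.694 to 0.747) at the short intron and 0.919 at its longer introns (odds ratio 0.783, 0.739 to 0.831). Psap went the other way, with 1.09 at the short intron and 0.975 at the longer ones (odds ratio 1.12, 1.07 to 1.17). All 3 are less than 2-fold, and with 1 library per group the spread between cultures that they would have to exceed is unknown.

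Short introns were used about as much as their neighbours. The level of an intron within its gene was taken as its reads over the median reads of the longer introns of that gene, in genes with at least 3 of them. For 4184 short introns the median level was 1.14 (middle 50%, 0.60 to 2.0). For 29185 longer introns of the same genes, each against the others, it was 1.0 (0.50 to 1.86). Set against the mean in place of the median, the levels were 0.875 and 0.762, so the side of 1 depended on the measure while short introns were above longer ones on both. Short introns under 70 bases (n = 78) had a median level of 1.14 but a lower quartile of 0.33. Levels differed by position for both sizes. First introns had levels of 0.645 when short and 0.429 when longer, inner introns 1.14 and 1.0, and last introns 1.36 and 1.14. The introns furthest above their gene among the leading 12 were Csf2ra at 26.5 times the median of its longer introns, Ucp2 at 8.43 and Pld3 at 6.91.

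**Figure D2:**
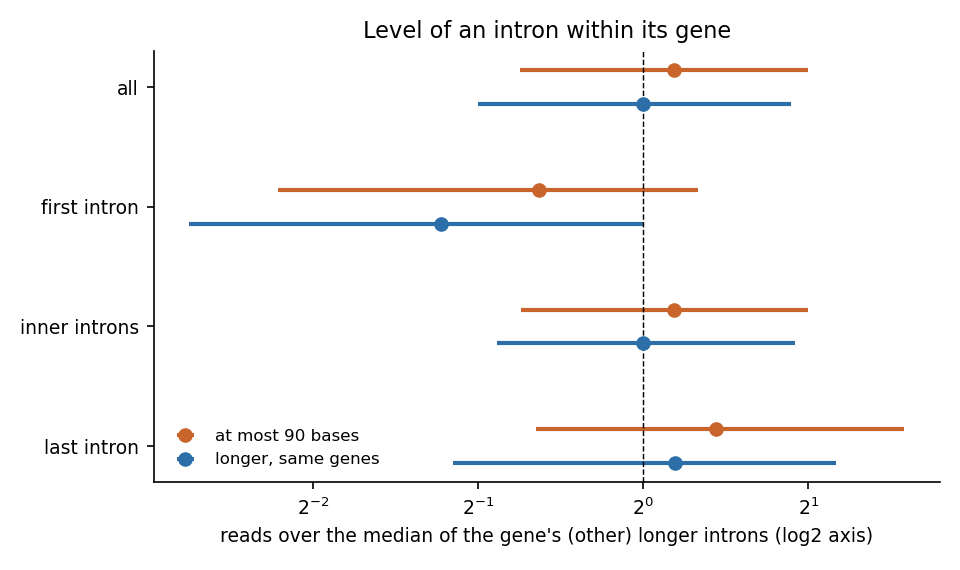
Reads of an intron over the median reads of the other, longer introns of its gene (x axis, log2 scale), for short and longer introns by position in the transcript. Points are medians over introns and bars the middle 50%. First introns lie lowest and last introns highest for both sizes.

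The annotation lists many short introns as kept in some transcript. A GENCODE transcript of the gene held the whole intron inside an exon for 1020 of 4401 short introns (23.2%, 21.9% to 24.5%). The share was 16.7% of introns of 91 to 200 bases in the same genes, 10.2% of those of over 200 and up to 1000 bases, and 2.23% of longer ones. Short introns listed as kept had a median level of 1.17 in their gene, and the others 1.12. By GC content, the 232 introns with the least GC (up to 51.1%) had a median level of 1.22 and the 229 with the most (62.2% and above) 1.14, with middle 50% ranges of 0.55 to 2.47 and 0.63 to 2.27.

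Between the libraries, most short introns changed little. A difference was called where both libraries together had 20 reads or more, the ratio reached 2 or fell to 0.5, and its 95% interval left out 1. Of 2140 short junctions with enough reads, 57 were higher with IL-10 and 39 lower. These are 2.66% and 1.82%, beside 2.89% and 2.08% of all junctions, 2.9% and 2.09% of all longer junctions and 3.09% and 1.62% of the longer introns of the host genes, so the shares were near the background. The median log2 ratio was 0.01, and 75.1% of short introns lay within 1.5-fold. At 100 or more reads, 6 of 616 were higher and 2 lower (0.974% and 0.325%). Among longer introns of the host genes with as many reads, 33 and 8 of 3511 were called (0.940% and 0.228%). The calls rest largely on introns with few reads.

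In the list of IL-10 and Stat3 response genes, the called short introns lay in 3 genes whose longer introns were also higher. Of the 21 short introns in 5 host genes of that list, 13 had enough reads, 9 were called higher and 0 lower, with a median log2 ratio of 1.26, against 0.01 over all short introns. Of the 9, 6 were in Sbno2, 2 in Stat3 and 1 in Bcl3. The list was drawn up with earlier results of these data known, and its direction is no independent evidence. Sbno2, a STAT3-induced corepressor, had 9 short introns with 487 reads with IL-10 and 216 untreated (ratio 2.27, 1.93 to 2.68), and its longer introns had 1323 and 563 (2.37, 2.14 to 2.62). Its intron at chr10:79521475-79521549 had 59 and 16 reads (3.71, 2.11 to 6.91). Stat3 itself had 137 and 47 reads on 2 short introns (2.94, 2.09 to 4.18), with 1379 and 640 on longer ones (2.17, 1.97 to 2.39). Bcl3, an IκB-like regulator of NF-κB, had 109 and 47 (2.34, 1.64 to 3.36), with 221 and 82 on longer ones (2.71, 2.10 to 3.54). Against the longer introns, 0 of the 13 differed by 2-fold in odds, and the median log2 odds ratio was 0.03. Rab3il1, an exchange factor for Rab GTPases that is not in the list, had a short intron with 157 and 44 reads (3.59, 2.56 to 5.14), another with 125 and 45 (2.80, 1.98 to 4.03), and longer introns with 489 and 156 (3.16).

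Among the other higher introns, 3 had no read in the untreated library. Ubxn6, a cofactor of the p97 ATPase, had 80 reads with IL-10 and 0 untreated at its intron 9 of 10, a 75-base intron at chr17:56208532-56208606. This is at least 21.3-fold higher by the lower limit of its 95% interval, and the ratio against a floor of 3 reads per library, which a count of 0 allows, is 26.9. The neighbouring introns 8 and 10 had 50 and 67 reads, and 11 and 19, with the IL-10 value first. The exon ends it joins, with the last 2 bases of one and the first 2 of the next in capitals, are shown because this was the highest ratio among the short introns tested.
Ubxn6 exons 9 and 10 joined: gctgtctactgcaAGGGaccttctatgccc
The coding intron of Gcdh (80 bases) had 30 and 0 reads, at least 7.70-fold higher by the same limit (10.1 against the floor), and its longer introns had 65 and 31. The Sbf1 intron shown above had 21 and 0 reads, at least 5.24-fold higher (7.05 against the floor), with 274 and 245 at the longer introns. These were the only 3 short introns with at least 20 reads and none in one library, and in each no other placement was listed within 20 bases of both ends. Of longer junctions, 92 of 42115 had no read in one library, 46 of them in the untreated one. The aligned stretch on the shorter side of the junction reached 31 bases for Ubxn6 and 27 for Gcdh, but 69 for Sbf1. The exon after the Gcdh intron is itself 27 bases long, whereas the exons beside the Ubxn6 intron have 131 and 149 bases. The median aligned stretch was 72 bases over the 2107 matched short introns with at least 20 reads, and 19 of these (0.902%) had under 40. Plxnb2, a semaphorin receptor, had 64 and 20 reads (3.22, 1.93 to 5.62), with 3543 and 2745 at its longer introns (1.30).

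The lower introns were in genes of varied function. Bckdk, the kinase that switches off branched-chain amino acid breakdown, had 6 and 29 reads (0.208, 0.071 to 0.511), with 220 and 294 at its longer introns. Adgre5, the adhesion receptor CD97, had 68 and 143 (0.479, 0.353 to 0.644), with 1066 and 1531 at its longer introns (0.701). Clk1, a kinase of SR splicing proteins, had 26 and 59 (0.444, 0.269 to 0.715), with 271 and 363 (0.752). Another short intron of Clk1, of 88 bases, had 23 and 14 reads, and its odds ratio against the longer introns was 2.20 (1.06 to 4.71). Ikbke, an IκB kinase relative, had 4 and 17, and Xrn2, a nuclear 5′ to 3′ exonuclease, 26 and 58. The remaining named introns, in Nudt16l1, Nemf, Dennd4c and Acd, had ratios of 0.294 to 0.496. For Adgre5, Clk1, Bckdk, Nemf, Dennd4c and Xrn2 the longer introns were lower too, by less, with intervals below 1. Their ratios were 0.754 in Bckdk (0.630 to 0.901), 0.825 in Nemf, 0.841 in Dennd4c and 0.880 in Xrn2. In Ikbke (0.929), Nudt16l1 (0.858) and Acd (0.803) the ratios of the longer introns were below 1, with intervals that held 1.

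Tcirg1, which encodes the a3 subunit of the proton pump that acidifies lysosomes, had 1 short intron called lower. Its 76-base intron 14 (chr19:3897682-3897757) had 162 reads with IL-10 and 358 untreated, a ratio of 0.456 (0.376 to 0.550). The short introns on either side, 12 and 17, had 492 and 637 (0.778), and 461 and 488 (0.951), and the remaining 4 short introns had ratios of 0.761 to 0.866. Among its longer introns, intron 13 had 281 and 283 (1.0), intron 11 had 229 and 331 (0.697, 0.586 to 0.827) and intron 15 had 567 and 490 (1.17, 1.03 to 1.32), so they varied too. Against all longer introns of the gene, with 2637 and 2826 reads, the odds ratio was 0.485 (0.397 to 0.590), and set only against its most-read longer intron it came to 0.503, outside the limit of 0.5. Of the 36 lysosomal short introns with enough reads this was the only one called, beside 1.82% of short introns called lower, which is near the background.

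**Figure D3:**
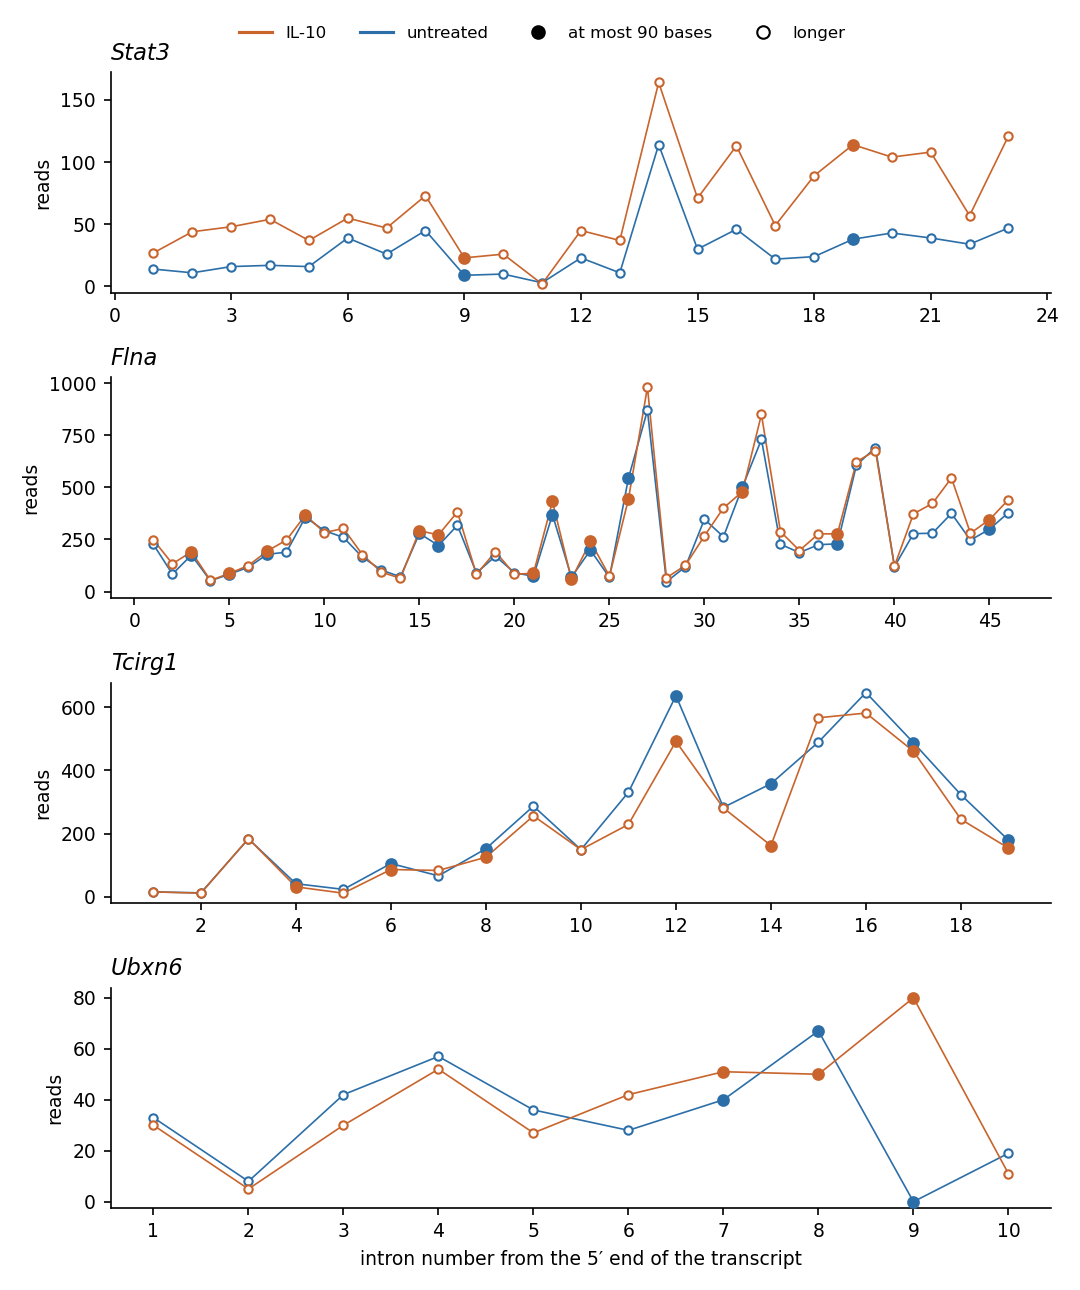
Reads at each intron in the order of the transcript (x axis, intron number), for 4 genes and both libraries. Filled points are introns of at most 90 bases and open points longer ones. All but 1 of the Stat3 introns are higher with IL-10, Flna introns have ratios of 0.775 to 1.59, Tcirg1 has its called intron at 14, and the untreated library has 0 reads at intron 9 of Ubxn6.

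Set against the longer introns of the same gene, few short introns departed. With at least 20 reads at each, 36 of 2038 short introns had an odds ratio of at least 2 and 39 of at most 0.5, with intervals leaving out 1 (1.77% and 1.91%). For longer introns, each against the rest of its gene, the shares were 1.8% and 1.59% of 13237. The median log2 odds ratio of short introns was 0.01. With 100 or more reads at the short intron, 1 of 600 was called higher, in Fam32a (191 and 167 reads, with 41 and 83 at the longer introns, odds ratio 2.32, 1.48 to 3.65), and 1 lower, in Tcirg1. At the same minimum, 14 of 3502 longer introns were called higher and 10 lower (0.400% and 0.286%). The Gcdh coding intron, with an odds ratio of 4.77, was at 0.645 against the longer intron with the most reads alone. Both values put the floor of 3 reads in place of its untreated count of 0, so the turn in direction rests on that floor. The named introns called higher beside Ubxn6, Gcdh and Sbf1 were in Cfp (properdin, a complement regulator, 48 and 20 reads, odds ratio 2.80), Dcxr, Plxnb2 and Tinf2 (a shelterin component of telomeres). Those called lower were in Rbm34, Fut11, Bckdk, Card9 (an adaptor of fungal sensing), Ap3b1, Khsrp (a regulator of mRNA decay and splicing) and Dgkz. Khsrp had a further lower short intron (9 and 21 reads, odds ratio 0.309) and one higher between the libraries (22 and 9 reads, 2.46). The Rbm34 odds ratio of 0.220 became 0.466 when longer introns over 1000 bases were left out, and was then no longer called. Against the longer intron with the most reads alone, Card9 (0.482) and Ap3b1 (0.514) were no longer called. In Fut11 the odds ratio of 0.179 rests on 14 and 26 reads at the short intron and only 15 and 5 at the longer one.

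Of the called introns with longer neighbours to compare, 50 were higher, in 42 genes, and 39 lower, in 37 genes. Introns of the same gene share the same longer introns, so the counts below are of introns and not of separate cases. In 14 of the 50 the longer introns summed also passed the 2-fold call, and in 39 they lay on the same side of 1. For the 39 lower introns, 2 passed and 25 lay on the same side. Median ratios were 2.60 for the higher introns and 1.23 for their longer neighbours, and 0.403 and 0.869 for the lower. The short introns here were chosen for their ratio and the longer ones were not, so part of this gap was fixed in advance. These counts and medians therefore do not show that short introns depart from their gene. Fewer than 100 reads lay behind 44 of the 50 and 37 of the 39. Summed per gene, 1254 genes could be compared, 80.2% had short and longer introns within 1.5-fold, 16 were called higher and 18 lower. No background is given for these gene sums, so the 16 and 18 cannot be set against the variation among longer introns. Over all host genes the short introns took 13.6% of reads with IL-10 and 13.8% untreated.

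**Figure D4:**
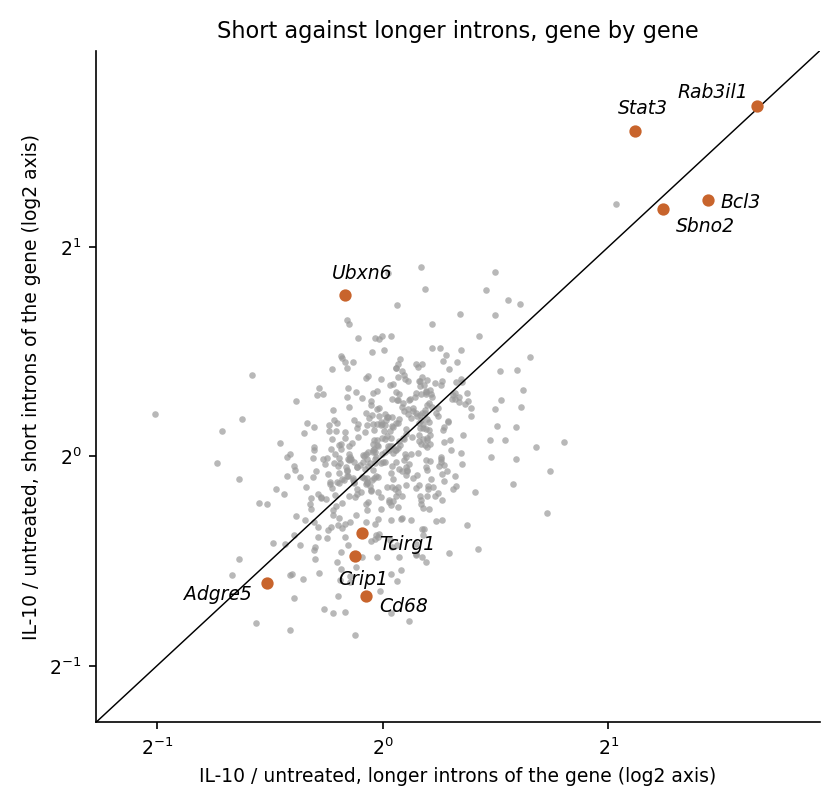
IL-10 to untreated ratio of the summed short introns of a gene (y axis) against that of its longer introns (x axis), both on log2 axes, for 514 genes with at least 100 reads on each kind. The line marks equal ratios, 92.0% of genes lie within 1.5-fold of it, and named genes are coloured.

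Some short introns share a donor or acceptor with another junction, which offers a direct measure of choice. At 325 such sites, on 305 introns, the short intron took more than 50% of the reads at the site in both libraries at 274, and less than 50% in both at 47. No site moved by 20 percentage points with intervals apart. The only site with intervals that did not overlap was in Emd, a protein of the inner nuclear membrane, where the 82-base intron took 105 of 105 reads with IL-10 (100%, 96.5% to 100%) and 97 of 107 untreated (90.7%, 83.5% to 95.4%). At 20 sites the main partner differed by 3 bases, and 18 of these were alternative acceptors.

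The 746 short junctions with no annotated match were sparse. They carried 3634 reads, and 448 had 1 read. By place, 293 shared a splice site with a matched intron, 156 had the exact length of an annotated intron but lay 2 to 12 bases off it, 113 lay inside an exon on its strand and 75 inside an exon on the opposite strand, and 109 were elsewhere. The shifted placements held 55.4% of the unmatched reads, and 18 of the 28 unmatched junctions with at least 20 reads. Among longer unmatched junctions they were 14.3% in number and held 25.8% of reads. A further 43 short junctions matched the length of a lone intron of a gene and are counted in neither class.

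For 14 shifted placements with at least 20 reads the annotated placement was also listed, and the intervals of the shifted share overlapped between the libraries in all 14. Among the 135 with fewer reads they lay apart in 3, all on the opposite strand. These were Ric1 (13 and 6 shifted reads, 0 and 11 annotated), Ppp1r16a (11 and 0 shifted, 7 and 9 annotated) and Elp5 (0 and 5 shifted, 13 and 0 annotated), chosen after their values were seen. In Grn, which encodes the growth factor progranulin, the annotated 81-base intron had 378 reads with IL-10 and 446 untreated, and a junction 2 bases upstream had 115 and 146. The shifted placement thus took 23.3% (19.7% to 27.3%) and 24.7% (21.2% to 28.3%). The letters of both, and the exon sequence each would leave, are shown to compare the placements, with capitals in the spliced pair marking the base that differs.
Grn annotated, chr11:102297257-102297337: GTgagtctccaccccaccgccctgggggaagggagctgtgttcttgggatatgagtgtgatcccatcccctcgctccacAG
Grn shifted, chr11:102297255-102297335: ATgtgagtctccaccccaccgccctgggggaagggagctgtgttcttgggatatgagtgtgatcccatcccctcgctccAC
Grn spliced at the annotated placement: gctgccagctgccccaTgctgtgtgctgtg
Grn spliced at the shifted placement: gctgccagctgccccaGgctgtgtgctgtg
The annotated placement has GT and AG ends, the shifted one has AT and AC ends, and the spliced products differ at 1 base in this window. Letters were found for 31 shifted placements. On the listed strand 13 read AT-AC, 11 GC-AG and 7 GT-AG, and in 28 the spliced product differed from the annotated one by at most 2 bases. For placements shifted by 2 bases this limit was fixed in advance, since such a shift can change no more than 2 bases.

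Other named genes had shifted shares from a few percent to nearly 50%. Pltp, a phospholipid transfer protein, had 59 and 60 reads at the shifted placement (12.9% and 13.8%). Pirb, an inhibitory receptor of a family of close copies, had 52 and 52 (13.3% and 12%). Ifi30, a lysosomal thiol reductase, had 49 and 39 on the opposite strand (5.4% and 3.61%), and Chd4, a chromatin remodeller, 23 and 23 (46.9% and 35.9%). On the strand opposite to the gene lay 57 of the 156. For 7 of these, and for none on the same strand, the annotated placement had no read in either library. Of those 7, 4 had at least 20 reads, among them junctions in Tln1 (talin, 152 and 176 reads), Map7d1 (92 and 78) and Vars (the valine tRNA synthetase, 18 and 18). In these genes the whole count of the intron is listed on the strand opposite to the gene. Whether transcripts or the placement of reads give the shifted junctions was not tested.

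**Figure D5:**
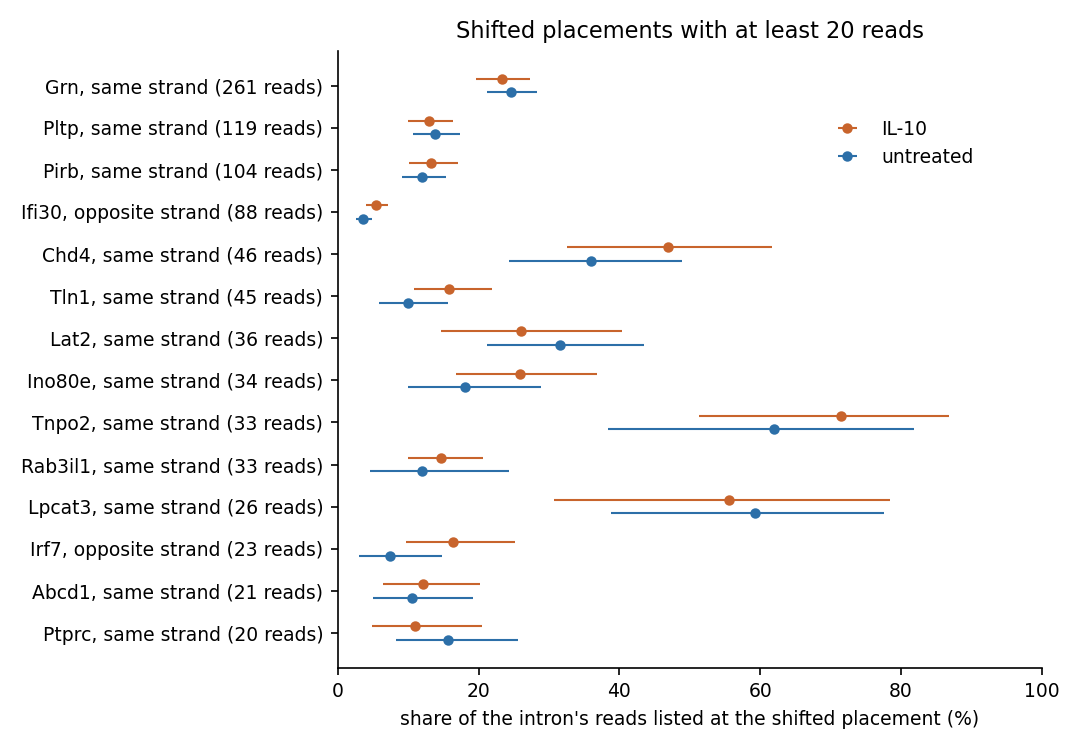
Share of an intron's reads listed at a placement shifted by 2 to 12 bases (x axis, percent), for the 14 shifted junctions with at least 20 reads whose annotated placement is also listed, with exact binomial 95% intervals. The strand is given relative to the gene, and the intervals of the 2 libraries overlap for all 14.

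The remaining unmatched junctions lay mostly inside exons or next to known sites. Of junctions inside an exon on either strand, 105 of 188 had a length that is a multiple of 3 (55.9%, 48.4% to 63.1%), against 34.3% (32.9% to 35.7%) of matched short introns and 28.8% of shifted placements. Letters were read for the 23 with at least 5 reads. In 7 of them the removed letters were a tandem repeat, and all 7 had a length that is a multiple of 3. The 7 were not separate cases, as Lgals3, Adam9 and Selplg each recurred among them, in part at overlapping placements. Lgals3, galectin-3, a lectin with a repetitive proline- and glycine-rich N-terminal part, is shown as the case with the most reads, chosen after its values were seen. The 54 bases are 2 identical copies of a 27-base unit, and 18 and 12 reads crossed them.
Lgals3, chr14:47999851-47999904: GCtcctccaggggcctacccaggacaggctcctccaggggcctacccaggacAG
Further repeats were in Adam9 (54 bases, 3 and 5 reads) and Selplg, the ligand of P-selectin (60 bases, 7 and 4 reads). Ctsz, the lysosomal protease cathepsin Z, had a 75-base GT-AG junction inside an exon with 26 and 31 reads. An unmatched junction of 81 bases at chr7:31711774-31711854 had 116 and 89 reads (1.31, 0.99 to 1.75), and no gene name was given to it.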

How the data were processed

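RNA-seq of 1 IL-10 and 1 untreated library was used. Groups were taken from the titles, since both samples carry the same protocol text. The submitters' processing notes name mm9, TopHat and Cufflinks (versions not given in the sources used here). Per the labels, inserts measured 188 bp with IL-10 and 197 bp without. The deposited junction lists give, for each junction, the count of reads placed across it, unscaled. A read that spans 2 junctions can count at both.

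Genes came from GENCODE M21 (GRCm38), matched by exact length and an offset of at most 20 Mb shared by at least 2 introns, with 1 junction per annotated intron (248 second claims dropped). With 1 library per group, no quasi-likelihood test could be fitted. Exact binomial and conditional intervals (95%) were computed with Python 3.11.15, numpy 2.4.6, scipy 1.17.1 and pandas 2.3.3, and checked on simulated data. Scaling alternatives used edgeR 4.0.16 and DESeq2 1.42.0 in R 4.3.3. Intron letters came from GENCODE transcripts.

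Named introns are the 12 with the most reads, up to 10 called in each direction between libraries and 8 within genes, the 8 genes with the most short introns, the 10 unmatched and the 5 shortest, and up to 3 genes per list, and some of these are not reported here. Members and lists were chosen with earlier results of these data known.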

Additional observations from a re-analysis of the deposited data

How the results depend on the processing

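Each count of calls moved with the minimum of reads, the fold and the interval, by construction. Of the altered settings, shares of longer introns stand above only for a minimum of 100 reads, so the other counts have no background here. Between the libraries, 57 higher and 39 lower became 119 and 80 with no minimum of reads, 6 and 2 with at least 100 reads, 110 and 84 at a fold of 1.5, 20 and 5 at a fold of 3, 29 and 14 with 99% intervals, and 22 and 21 at a limit of 80 bases. Within genes, 36 higher and 39 lower became 8 and 7 with at least 50 reads at each, 1 and 1 with at least 100, 73 and 74 at an odds ratio of 1.5, 7 and 12 at 3, 11 and 11 with 99% intervals, and 21 and 19 at a limit of 80 bases. The odds ratio of the 80-base Gcdh intron was 0.645 against the longer intron with the most reads alone. This value puts the floor of 3 reads in place of its untreated count of 0, and its direction rests on that floor. The median level was 0.875 against the mean of the longer introns. The annotated share was 98.5% with at least 20 reads, 94.6% in both libraries, 81.1% at a limit of 80 bases and 88% with shifted placements counted, an alternative added after seeing the data. Scaling by all junction reads, by TMM or by DESeq2 size factors moved no count of calls by over 1.5 times. No paired analysis was possible because each group has 1 library, and for the same reason no library could be left out.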
